A study of Mus musculus with 6 samples.

Results

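The 8 genes described here, Ccl9, Ccl3, Csf1r, Flt3, Ramp1, Cd28, Grap2 and Emb, are known from general knowledge as genes of other blood lineages that Pax5 holds down in B cells. They were chosen by name, with earlier results of these data known, and found by Entrez Gene identifier. All 8 were present among the 26286 genes of the count table. When Pax5 was restored, 3 of the 8 fell (Ccl9, Ramp1 and Grap2), 1 rose (Csf1r), 1 did not pass the test (Flt3), and 3 held too few reads to be tested (Ccl3, Emb and Cd28). Over all genes tested in the same fit, 26.6% fell and 27% rose, together 53.6%. The description as genes repressed by Pax5 matched the direction of 3 of the 5 members that could be tested. Csf1r went against it. Because of how the members were chosen, this match is no independent support for the description.

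Pax5 directs early lymphoid cells into the B cell fate and holds them there. It works both by switching on B cell genes and by silencing genes that belong to macrophages, T cells, other myeloid cells or uncommitted progenitors. Loss of Pax5 is common in acute lymphoblastic leukemia of B cell progenitors.

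RNA was sequenced in 3 libraries from mice fed doxycycline (dox) over 3 days, which restores Pax5, and in 3 libraries from untreated mice (0 days). Both groups carried the same tri-transgenic leukemia, A024, in Rag1 knockout hosts, and leukemia cells were sorted from bone marrow, as GFPmid cells in the dox group and as GFPhigh cells in the untreated group. The labels name no transgene. As background on the published model, dox shuts off a short hairpin RNA against Pax5 that is transcribed together with GFP. All libraries stem from 1 leukemia, sort gate and treatment cannot be told apart, and a Rag1 knockout host has no mature B or T cells of its own but keeps myeloid and natural killer (NK) cells.

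Total counts per library ran from 14185203 to 15612435, and 12275 genes passed the low-count filter and were tested. Pax5 itself averaged 246.3 ± 30.2 CPM (read counts scaled to library size) in dox libraries and 117.5 ± 32.0 CPM in untreated libraries (SD, n = 3 each), with a log2 fold change of 1.07 (standard error, SE, 0.17, edgeR quasi-likelihood adjusted p = 0.000695). Of 10 genes described as activated by Pax5, 10 rose, with a median log2 fold change of 1.01, against a median of 0.01 over all genes tested. B lineage markers summed to 9775 to 10468 CPM in dox libraries and 7112 to 7312 CPM in untreated libraries. A gene was counted as having risen or fallen at an adjusted p under 0.05. Of the 10 B lineage markers, 9 rose and 1 fell, the surface protein Cd24a, with a mean of 1050 CPM in dox libraries and 1928 CPM in untreated libraries (log2 fold change −0.88, SE 0.08, edgeR adjusted p = 3.19e-05). The dox libraries lay wholly above the untreated ones for 31.2% of all genes tested and wholly below for 31%, together 62.2%, against 1 and 3 of the 5 tested members. Nothing is called particular to the members from these counts.

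The promoters of the 3 members that fell are shown because these are the genes that moved as the label says. Each is the stretch of 250 bases before the RefSeq transcript start (build GRCm38.p6), given 5′ to 3′ on the strand of the gene, with capitals at matches to the motifs searched.
Ccl9, chr11:83578637-83578886, minus strand: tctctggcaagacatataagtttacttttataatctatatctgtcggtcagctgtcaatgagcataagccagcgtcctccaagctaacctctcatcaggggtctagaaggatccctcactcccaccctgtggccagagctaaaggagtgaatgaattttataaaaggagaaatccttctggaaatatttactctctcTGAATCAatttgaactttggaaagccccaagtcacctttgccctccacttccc
Ramp1, chr1:91179572-91179821, plus strand: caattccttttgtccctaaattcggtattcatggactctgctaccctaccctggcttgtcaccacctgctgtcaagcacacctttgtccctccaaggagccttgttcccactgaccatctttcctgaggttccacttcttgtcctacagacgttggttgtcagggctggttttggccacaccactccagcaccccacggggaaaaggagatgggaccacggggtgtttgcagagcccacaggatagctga
Grap2, chr15:80623233-80623482, plus strand: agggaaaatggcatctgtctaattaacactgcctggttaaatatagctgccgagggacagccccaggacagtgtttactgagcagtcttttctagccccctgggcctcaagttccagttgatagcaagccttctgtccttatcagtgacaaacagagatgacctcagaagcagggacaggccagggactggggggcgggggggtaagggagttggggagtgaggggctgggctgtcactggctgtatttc
These 250 bases were searched on both strands for 6 motifs, in 6 of the 8 members. Csf1r, which went against the label, and Cd28 were not searched. The member windows were filtered before the search, so a missing window does not mean that a gene lacks a promoter sequence. The search therefore says nothing about these genes. The letters were GCGTGAC for the core of the Pax5 paired domain motif, GAGGAAG for PU.1 and ETS factors, TGTGGTT for Runx factors, TTGCNNAA for C/EBP, TGANTCA for AP-1, and the NF-kB motif. The single match in the 6 windows was an AP-1 motif in Ccl9 that starts 53 bases before the transcript start. Over 32851 promoter windows of the same length, 6.75% held that motif, 1.78% the Pax5 core, 10.6% GAGGAAG, 4.4% TGTGGTT, 9.56% TTGCNNAA and 1.21% the NF-kB motif. Unlike the member windows, these background windows were not filtered by chromosome. A match is a run of letters and not a measured site, and no binding was measured.

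The secreted members are both CC chemokines, small proteins that draw myeloid cells and lymphocytes to a tissue. Ccl9 (Entrez Gene 20308), a chemokine known from macrophages and other myeloid cells, had 0.856, 0.418 and 0.832 CPM in dox replicates 1, 2 and 3, against 10.8, 16.8 and 15.3 CPM in untreated replicates 1, 2 and 3. Every dox library lay far below every untreated one, in counts 13, 6 and 13 reads against 155, 250 and 225. The level was 20.0-fold lower after dox (log2 fold change −4.32, SE 0.28, edgeR adjusted p = 7.11e-06), the lowest log2 fold change among the 12275 genes tested. By an exact two-sided permutation test on CPM, p was 0.1, and a design of 3 against 3 can go no lower. As in any bulk sample, fewer cells with a transcript and less of it per cell cannot be told apart.

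Ccl3 (20302), a macrophage inflammatory chemokine, was close to absent in both groups. Its counts were 3, 0 and 1 in the dox libraries and 0, 1 and 2 in the untreated libraries. The groups overlapped, and the ratio of summed counts, dox over untreated, was 1.30 with an exact binomial 95% interval of 0.219 to 8.85, which covers counting error only. A fall like that of Ccl9 could not have been detected at this depth, because there was almost nothing to lose before dox.

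By RefSeq gene order, Ccl6, a close relative of Ccl9, is the only protein-coding gene of the count table between Ccl9 and Ccl3, Ccl5 lies on the other side of Ccl9, and Ccl4 lies beyond Ccl3. Ccl6 had 2.90, 0.766 and 1.41 CPM in dox libraries and 2.66, 1.81 and 1.97 CPM in untreated libraries, overlapping groups with a log2 fold change of −0.34 (SE 0.43, edgeR adjusted p = 0.532). Ccl5 had 3 reads in all dox libraries and 1 in all untreated libraries, and Ccl4 had 0 and 1. Among these 5 neighbouring chemokine genes Ccl9 alone passed the test, and Ccl3, Ccl4 and Ccl5 were too low to enter it. How the authors' counting treated reads that fit both Ccl9 and Ccl6 is not stated in the sources used here.

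Of 14 further CC chemokine and receptor genes listed, 3 were tested and 0 were called by edgeR. They were Ccl6, Ccrl2, a non-signalling chemokine receptor (log2 fold change 0.34, SE 0.26), and Ccr2, a receptor of inflammatory monocytes (1.31, SE 0.54, adjusted p = 0.0642). Before adjustment, edgeR counted 1 of the 3, Ccr2, at a p under 0.05. Without dox replicate 2, Ccr2 was called (log2 fold change 1.62, adjusted p = 0.0186). Ccr1, a receptor used by these chemokines, was scarce, with 16, 7 and 11 reads in dox libraries and 9, 6 and 4 in untreated libraries.

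**Figure D1:**
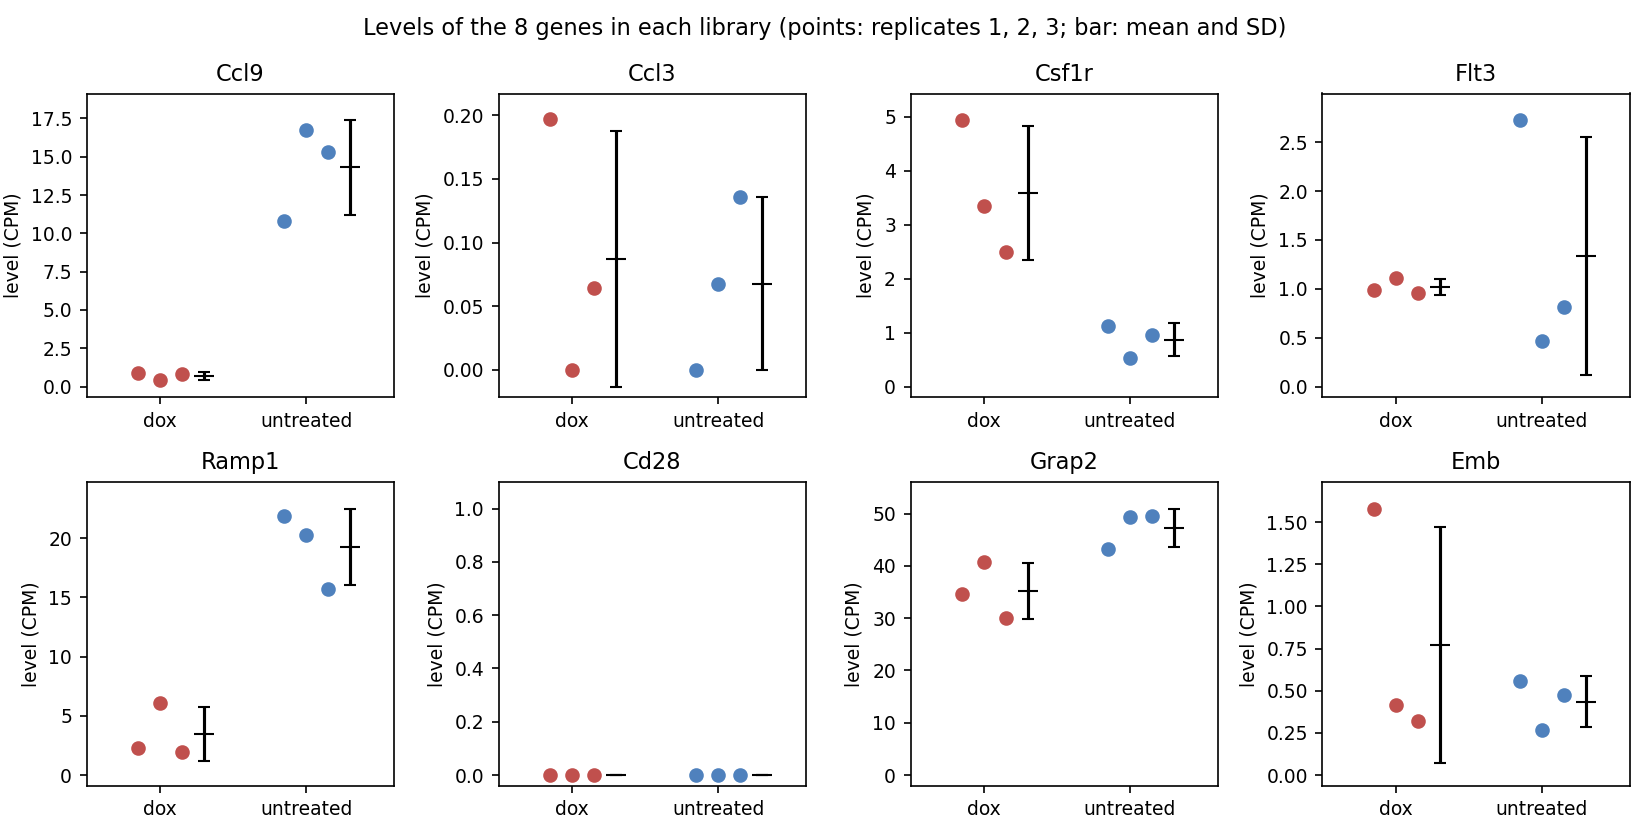
Level of each of the 8 genes in CPM (vertical axis, linear, its own scale per gene) in dox and untreated libraries. Points are replicates 1, 2 and 3 from left to right, and the bar gives the mean and SD. Ccl9, Ramp1 and Grap2 lie lower in every dox library, Csf1r lies higher, the high value of Flt3 is untreated replicate 1, and that of Emb is dox replicate 1.

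Csf1r and Flt3 encode related receptor tyrosine kinases. Csf1r (12978), the receptor that macrophages need for growth and survival, had 4.94, 3.34 and 2.50 CPM in dox replicates 1, 2 and 3, against 1.12, 0.537 and 0.952 CPM in untreated replicates 1, 2 and 3. All dox libraries were above all untreated ones, against the direction of a gene repressed by Pax5. It rose 4.11-fold (log2 fold change 2.04, SE 0.36, edgeR adjusted p = 0.00125).

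Markers of macrophages and monocytes were mostly higher after dox, as Csf1r was. Of the 15 listed, 11 were tested, 9 rose and 0 fell, beside 27% and 26.6% of all genes tested. The median log2 fold change was 1.86, and none of the 15 was at 0 in all libraries. The list summed to 138, 53.9 and 72.7 CPM in dox libraries and to 34.7, 26.0 and 33.5 CPM in untreated libraries. Among dox libraries the sum was lowest in replicate 2, and Csf1r in replicate 3. Its most abundant genes were Lyz2, which encodes lysozyme, with a log2 fold change of 1.39 (SE 0.44), and Itgam, the integrin chain of Mac-1, with 1.82 (SE 0.31). The groups overlapped for Lyz2, with 16.7 CPM in dox replicate 2 and 18.7 CPM in untreated replicate 3, but not for Itgam. Csf1r, which is not in the list, equalled 3.59%, 6.19% and 3.43% of that sum in dox libraries and 3.22%, 2.06% and 2.84% in untreated libraries. These percentages did not overlap between the groups, although the smallest dox value, 3.43%, was close to the largest untreated value, 3.22%. Set against the complement genes C1qa, C1qb and C1qc, a macrophage product chosen after its values had been seen, Csf1r stood at 0.446, 0.271 and 0.320 of their summed CPM in dox libraries and at 0.348, 0.381 and 0.875 in untreated ones, and the groups overlapped. The part of such cells in the rise of Csf1r was not tested.

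The ligand of Csf1r rose as well. Csf1, which encodes macrophage colony-stimulating factor, had 48.7, 48.7 and 50.6 CPM in dox libraries and 9.02, 11.7 and 11.3 CPM in untreated libraries (log2 fold change 2.21, SE 0.10, edgeR adjusted p = 1.88e-06). The part of macrophages in this rise was likewise not tested. Il34, the other ligand, had 0 reads in all libraries. Spi1, the myeloid and B cell factor PU.1 that drives Csf1r in macrophages, averaged 81.7 ± 5.44 CPM in dox and 50.4 ± 3.37 CPM in untreated libraries (log2 fold change 0.70, SE 0.08, adjusted p = 0.000133).

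**Figure D2:**
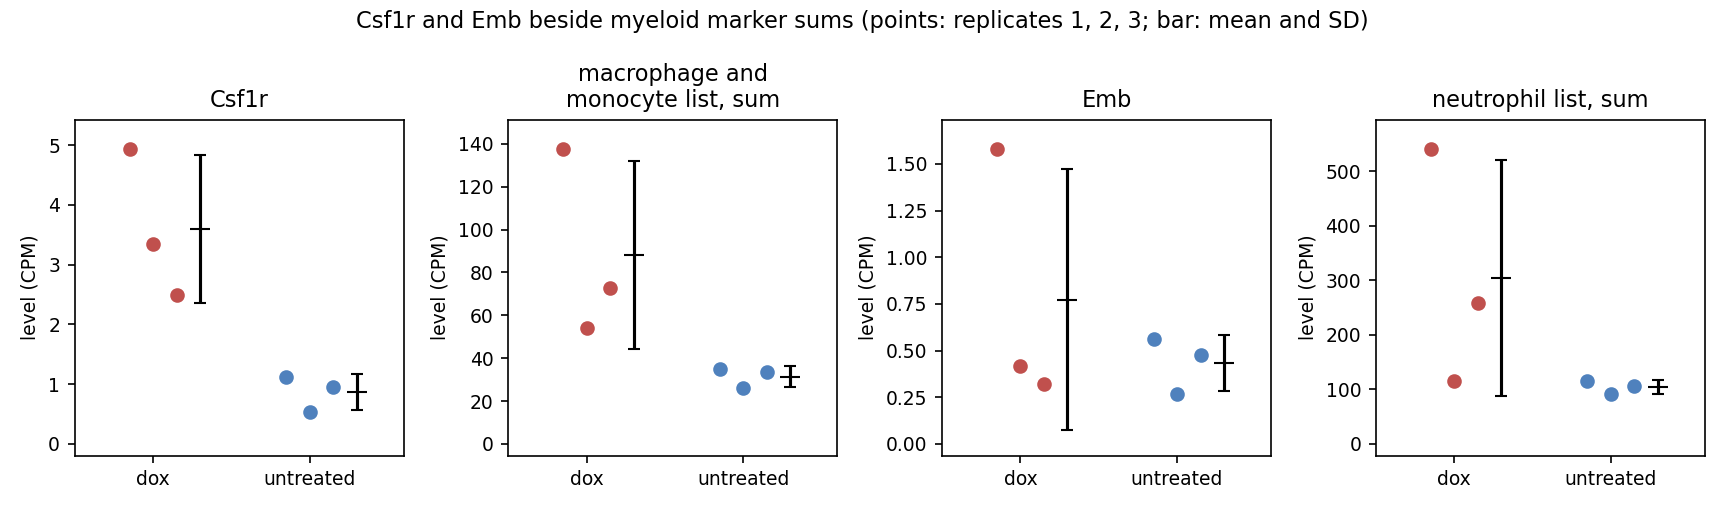
CPM (vertical axes, linear) of Csf1r, the summed macrophage and monocyte list, Emb and the summed neutrophil list in dox and untreated libraries. Points are replicates 1, 2 and 3 from left to right, with mean and SD. Dox replicate 1 is the highest library in all 4 panels, at 4.94 CPM of Csf1r and 1.58 CPM of Emb.

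Flt3 (14255), a receptor of early lymphoid and dendritic cell progenitors, had 0.987, 1.11 and 0.960 CPM in dox replicates 1, 2 and 3, against 2.73, 0.470 and 0.816 CPM in untreated replicates 1, 2 and 3. The dox libraries lay close together, inside the wide range of the untreated ones. The log2 fold change was −0.38 (SE 0.57, edgeR adjusted p = 0.598), and it turned to 0.66 (SE 0.40, adjusted p = 0.21) without untreated replicate 1, which held 39 of the 58 untreated reads. Flt3 is therefore given no direction. Its ligand gene Flt3l rose, with 18.8, 15.3 and 13.2 CPM in dox libraries and 8.60, 8.18 and 9.04 CPM in untreated libraries (log2 fold change 0.87, SE 0.15, adjusted p = 0.001).

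Of 18 genes listed with Csf1r and Flt3 as ligands, related receptors, signal carriers or myeloid factors, 11 were tested, 8 rose and 1 fell. Beside Csf1, Flt3l and Spi1 the list held Ptpn6, a phosphatase that limits cytokine signals, which rose by 0.45 (SE 0.06, adjusted p = 0.000258) on the log2 scale. The gene that fell was Runx1, a factor of blood stem cells and progenitors (log2 fold change −0.77, SE 0.12, adjusted p = 0.000547). Kit, Kitl, Pdgfra and Pdgfrb, which encode receptors of the same class and a ligand, had at most 5 reads in any library.

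Ramp1 (51801) encodes a single-pass membrane protein that joins the receptor Calcrl to form the receptor of the neuropeptide CGRP. It had 2.30, 6.06 and 1.92 CPM in dox replicates 1, 2 and 3, against 21.9, 20.3 and 15.7 CPM in untreated replicates 1, 2 and 3. The groups were well apart, although dox replicate 2 held more than the other dox libraries. The level was 5.67-fold lower after dox (log2 fold change −2.50, SE 0.35, edgeR adjusted p = 0.000324), and the log2 fold change was −3.19 (SE 0.21) without dox replicate 2.

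The partner of Ramp1 moved the other way. Calcrl had 41.5, 44.6 and 46.7 CPM in dox libraries and 31.5, 34.3 and 36.2 CPM in untreated libraries, with no overlap (log2 fold change 0.38, SE 0.08, edgeR adjusted p = 0.00402). Ramp2 had 0 reads and Ramp3 had 1 read in all libraries together, so Ramp1 was the only member of its family with more than 1 read here. The ligand genes Calca, Calcb and Adm2 had 0 reads, and Adm had 1 read in each dox library and 0 in the untreated libraries. Of the 10 listed genes of this receptor system, 3 were tested and only Calcrl was called. Crcp, which encodes a component named for CGRP receptors, had a log2 fold change of 0.18 (SE 0.08, adjusted p = 0.0753), and Gnas, the stimulatory G protein subunit, one of 0.02 (SE 0.07). Crcp was called at 0.23 (adjusted p = 0.029) without dox replicate 2.

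Cd28 and Grap2 belong to T cell signalling. Cd28 (12487), the co-stimulatory receptor of T cells, had 0 reads in every library. With 3 counts as the limit that a count of 0 allows, its level was at most 0.0662 CPM over the 45304070 reads of the dox libraries and at most 0.0684 CPM over the 43868881 reads of the untreated libraries. This limit covers counting error only. Cd28 was thus not detectable with Pax5 low, and no fall could be measured.

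Grap2 (17444), which encodes the adaptor Gads that links the scaffold Lat to Lcp2 (SLP-76) beneath the T cell receptor, had the highest level of the 8 per length of gene. It had 34.7, 40.8 and 30.0 CPM in dox replicates 1, 2 and 3, against 43.1, 49.2 and 49.6 CPM in untreated replicates 1, 2 and 3. The groups did not overlap, but the nearest libraries, dox replicate 2 and untreated replicate 1, differed little. The level was 1.35-fold lower after dox (log2 fold change −0.43, SE 0.11, edgeR adjusted p = 0.0111). This is a change of ordinary size here, since the median absolute log2 fold change over all genes tested was 0.35.

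The genes that work with Grap2 split in direction. Lat had 28.9, 47.5 and 20.0 CPM in dox libraries and 98.4, 107 and 92.3 CPM in untreated libraries, a fall larger than that of Grap2 (log2 fold change −1.63, SE 0.25, edgeR adjusted p = 0.000537). Lcp2 had 26.7, 13.9 and 26.8 CPM in dox libraries and 13.2, 11.3 and 11.1 CPM in untreated libraries and rose (0.92, SE 0.23, adjusted p = 0.00781). Grap, an adaptor of the same family as Grap2, rose by 0.55 (SE 0.08), Hcls1, a cytoskeletal signalling protein, by 0.67 (SE 0.07), and Plcg1, the phospholipase that Lat recruits, by 2.64 (SE 0.17, adjusted p = 6.96e-06). In all, 13 of 16 listed genes were tested, 7 rose and 1, Lat, fell. Among the 7, the low gene Icosl, a ligand of the Cd28 relative Icos, had a log2 fold change of 1.14 (SE 0.37, adjusted p = 0.0273) and was not called without dox replicate 1 or 3 or without untreated replicate 1 or 2 (adjusted p from 0.064 to 0.0938). The ligands of Cd28 were low. Cd86 rose, with 29, 19 and 34 reads in dox libraries and 8, 3 and 6 reads in untreated libraries (log2 fold change 2.20, SE 0.40, adjusted p = 0.00154), and Cd80, too low to be tested, had 13, 9 and 8 reads in dox libraries and 10, 3 and 6 in untreated ones.

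Of 11 T cell markers, 3 were tested and 1, the kinase Lck, fell. The other 8 held few reads or none. Cd3e and Cd8a had 0 reads in all libraries, and Cd3g had 1 read in untreated replicate 2. Trac, the constant region of the T cell receptor alpha chain, had 1, 4 and 1 reads in dox libraries and 17, 16 and 5 in untreated libraries, so it lay lower in every dox library, as Grap2, Lat and Lck did. Cd4 had 7, 2 and 7 reads in dox libraries and 1, 1 and 0 in untreated libraries, and Cd3d had 9 reads in all dox libraries and 3 in all untreated ones. The list's sum of 143 to 226 CPM in dox libraries and 343 to 433 CPM in untreated libraries came almost wholly from Lck and from Cd247, a signalling chain of the T cell receptor complex. The part of T cells in the falls of Grap2 and Lat was not tested. Lck fell, with 83.7, 132 and 83.3 CPM in dox libraries and 265, 345 and 318 CPM in untreated libraries (log2 fold change −1.63, SE 0.18, edgeR adjusted p = 7.99e-05), and Cd247 did not pass (−0.03, SE 0.15). Dox replicate 2 held the most Ramp1, Grap2, Lat and Lck among the dox libraries, and also the most Pax5, at 281 CPM against 227 and 231 CPM in dox replicates 1 and 3. This rests on 1 library and on genes picked after their values had been seen, and a link between these levels was not tested.

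**Figure D3:**
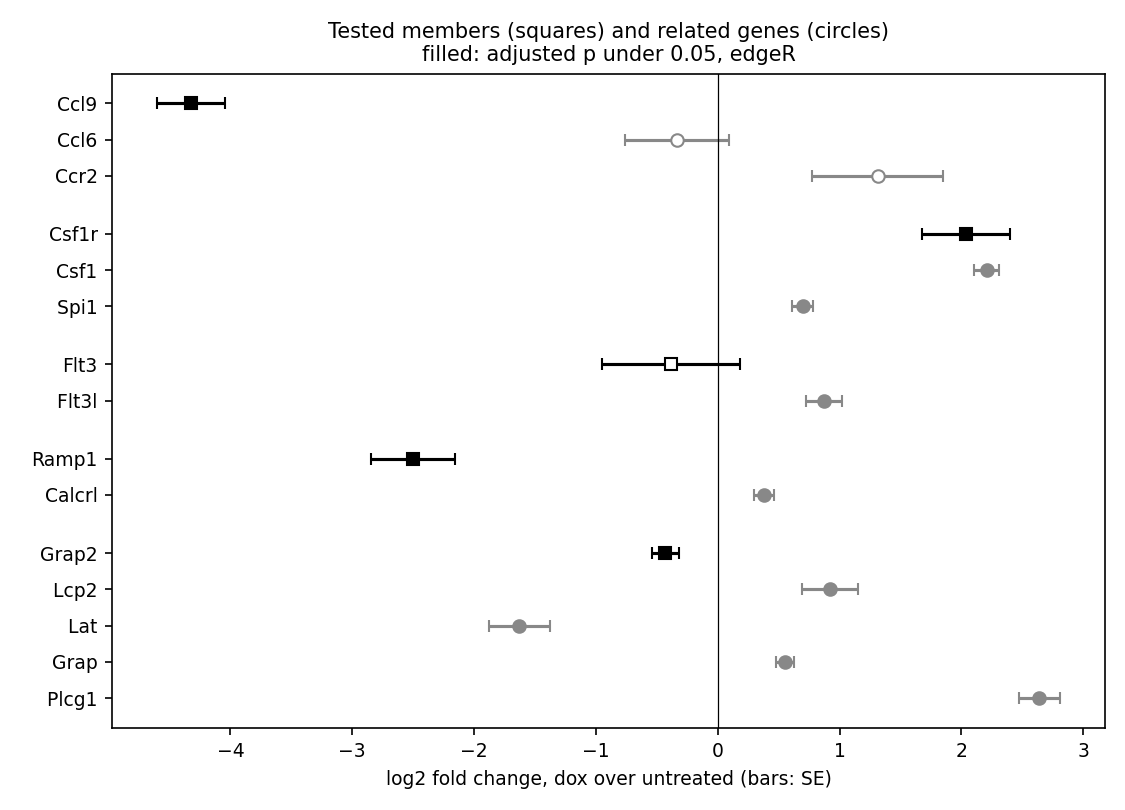
Log2 fold change, dox over untreated (horizontal axis), of the 5 tested members (squares) and of genes related to each (circles), with SE bars; filled symbols have an edgeR adjusted p under 0.05. Ccl9 lies at −4.32 and Ramp1 at −2.50, while the ligands Csf1 and Flt3l and the Ramp1 partner Calcrl lie on the right of 0.

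Emb (13723) encodes embigin, a membrane protein that carries monocarboxylate transporters to the cell surface. It had 1.58, 0.418 and 0.320 CPM in dox replicates 1, 2 and 3, against 0.559, 0.268 and 0.476 CPM in untreated replicates 1, 2 and 3. Dox replicate 1 stood alone and the other 5 libraries overlapped. Emb did not pass the filter, and the ratio of summed counts, 35 dox reads over 19 untreated reads, was 1.79 with an exact binomial 95% interval of 0.997 to 3.31 for counting error only. With no filter edgeR gave a log2 fold change of 0.79 (SE 0.62, adjusted p = 0.362).

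Neutrophil markers were also highest in dox replicate 1. Of 11 listed, 9 were tested, 8 rose and 0 fell, beside 27% and 26.6% of all genes tested. The median log2 fold change was 1.52, and none was at 0 in all libraries. They summed to 540, 115 and 258 CPM in dox replicates 1, 2 and 3 and to 116, 91.2 and 107 CPM in untreated replicates 1, 2 and 3, led by S100a9 and S100a8, calcium-binding proteins of granulocytes (log2 fold changes 1.51, SE 0.48, and 1.70, SE 0.45). The groups overlapped in this sum and in both genes. Dox replicate 2 had 31.2 CPM of S100a9 and 22.9 of S100a8, against 39.1 and 23.1 in untreated replicate 1. The part of neutrophils in the Emb value of dox replicate 1 was not tested. Dendritic cell markers, led by Itgax and Ccr9, summed to 1.22 to 2.37 CPM in dox libraries and 0.419 to 0.544 CPM in untreated libraries, with 1 of 8, Cd209a, at 0 in all. NK cell markers, led by Klrb1c and Prf1, summed to 3.69 to 10.2 CPM and 3.36 to 5.78 CPM, with Klra8 and Eomes at 0 in all.

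Embigin and its relatives carry lactate transporters to the cell surface. Slc16a1, the transporter Mct1, had 310, 389 and 364 CPM in dox libraries and 680, 644 and 628 CPM in untreated libraries and fell (log2 fold change −0.88, SE 0.09, edgeR adjusted p = 6.31e-05). Bsg, which encodes basigin, another carrier of these transporters, did not pass (0.13, SE 0.07, adjusted p = 0.161). Nptn, a further relative, rose by 0.28 (SE 0.08, adjusted p = 0.0191), a call lost without dox replicate 1 (adjusted p = 0.0709), without untreated replicate 1 (0.0512) or without untreated replicate 3 (0.0666). Ldha, which makes lactate, fell (−0.53, SE 0.09, adjusted p = 0.00106). Of the 9 listed, 6 were tested, 1 rose and 2 fell.

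Levels of different genes can be set side by side only per length of the gene, here as CPM divided by the deposited gene length in kilobases (RPKM). In dox libraries the order was Grap2 at a mean of 12.0, Ramp1 at 1.13, Csf1r at 0.927, Emb at 0.295, Flt3 at 0.279, Ccl9 at 0.233 and Ccl3 at 0.110 RPKM. In untreated libraries it was Grap2 at 16.2, Ramp1 at 6.38, Ccl9 at 4.75, Flt3 at 0.366, Csf1r at 0.224, Emb at 0.166 and Ccl3 at 0.0857 RPKM. In the dox group Ramp1 overlapped with Csf1r between libraries, Emb, Flt3 and Ccl9 overlapped with each other, and Ccl3 overlapped with Emb and Ccl9. In the untreated group Ramp1 overlapped with Ccl9, and Flt3, Csf1r, Emb and Ccl3 all overlapped with each other. Ccl9 thus stood beside Ramp1 in the untreated order, and among the genes under 1 RPKM in the dox order.

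Other genes described as repressed by Pax5 did not share 1 direction either. Of 12 listed, 10 were tested, 4 rose (Lmo2, Prdm1, Notch1 and Xbp1) and 1 fell (Jchain), with a median log2 fold change of 0.36. Jchain, which encodes the joining chain of secreted antibodies, had 47.8, 91.5 and 35.7 CPM in dox libraries and 100, 184 and 292 CPM in untreated libraries (log2 fold change −1.72, SE 0.41, edgeR adjusted p = 0.00597). Lmo2, a cofactor of blood progenitors, had 8.42, 5.29 and 10.4 CPM against 1.75, 2.88 and 2.45 CPM (1.77, SE 0.29, adjusted p = 0.00077). Prdm1, the plasma cell regulator Blimp-1, rose by 0.87 (SE 0.12). The rise of Xbp1, a regulator of secretion (0.30, SE 0.08, adjusted p = 0.01), was not called without untreated replicate 2 (adjusted p = 0.0536) or 3 (0.0506). Without dox replicate 2, Id2, an inhibitor of E proteins, was also lower (−1.07, adjusted p = 0.0042), and Cd33, a myeloid lectin, higher (1.41, adjusted p = 0.0232). Over all 6 lists of related genes, 46 of 79 were tested, 21 rose (45.7% of those tested) and 5 fell (10.9%), beside 27% and 26.6% of all genes tested.

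**Figure D4:**
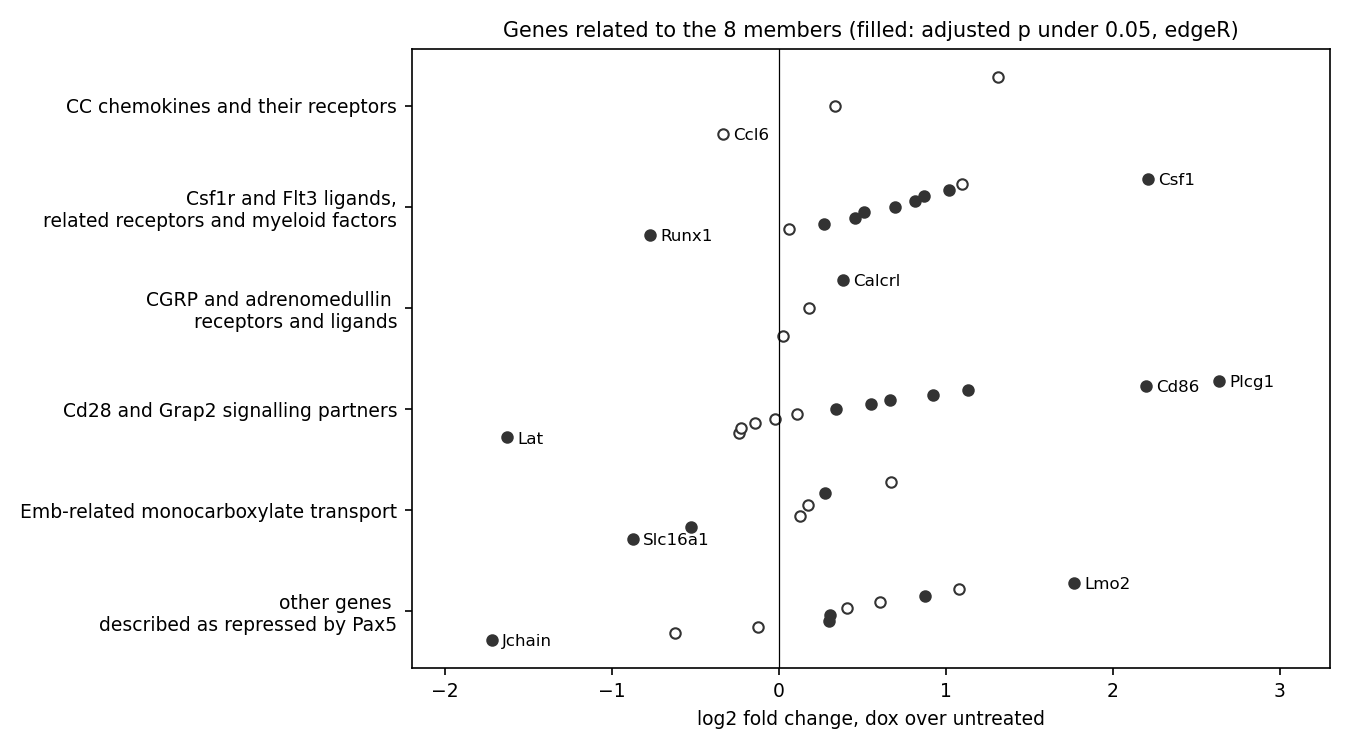
Log2 fold change, dox over untreated (horizontal axis), of the 46 tested genes in the 6 lists of related genes; each point is 1 gene and filled points have an edgeR adjusted p under 0.05. Of the filled points 21 lie right of 0 and 5 (Runx1, Lat, Slc16a1, Ldha and Jchain) lie left of it.

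The genes whose profile lay nearest to each tested member were found by the root mean square difference of log2 CPM, centred on each gene's mean, over the 6 libraries. These distances describe libraries that share 1 leukemia and fall into 2 groups, and imply no shared control. Genes picked in this way tend to share the member's high and low libraries by selection. Nearest to Ccl9 were Wapl, which releases cohesin from chromatin, at 0.686, and Lif, a cytokine gene, at 0.736. Nearest to Ramp1 were Gm19639, a predicted gene, at 0.178 and Adamts17, a metalloprotease gene, at 0.183. By that selection, dox replicate 2 was the highest dox library in both. Nearest to Grap2 were Zswim1 at 0.0253 and Ints1, a subunit of the Integrator complex, at 0.0493. Nearest to Csf1r were Dpt, which encodes an extracellular matrix protein, at 0.157 and Tbc1d2b at 0.162. Nearest to Flt3 were Serpine3 at 0.300 and 1700028K03Rik at 0.319, and by the same selection both were highest in untreated replicate 1.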

How the data were processed

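RNA of sorted leukemia cells was sequenced in 6 libraries, 3 per group. The deposited values are whole-number read counts per gene with Entrez identifiers and gene lengths. Per the submitters' processing notes, the authors used CASAVA 1.8.2 and featureCounts with build mm9. No aligner, annotation or strand setting is named in the sources used here, so overlapping genes on opposite strands cannot be told apart. The counts of the 6 single-library files equalled the series table. Symbols came from RefSeq (GRCm38.p6), which matched 24176 of 26286 identifiers and gave no mm9 coordinates.

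Genes were filtered with filterByExpr (minimum count 10), scaled by TMM (factors 0.991 to 1.009), and the 12275 genes left were tested by edgeR 4.0.16 (R 4.3.3, quasi-likelihood F-test, no covariates). Calls were made at an adjusted p (Benjamini-Hochberg, all genes) under 0.05. SE is the log2 fold change divided by the square root of F. CPM is on the TMM scale. The scripts were tested on simulated data. Alternatives were other scalings and filters, DESeq2 1.42.0, limma 3.58.1 voom, a replicate block and leaving out each library.

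The members and lists were chosen with earlier results of these data known. Genes named are the members, Pax5, their direct ligands, receptors and partners, the 3 smallest p of each related list, the 2 most abundant markers of 5 cell types, the 2 nearest profiles of each tested member and any gene behind a count of 5 or fewer. Other genes, among them Kit, Kitl, Pdgfra, Pdgfrb, Ramp2, Ramp3, Calca, Calcb, Adm, Adm2, Icosl, Id2, Cd33, Csf3r, Crcp, Trac, Cd4 and Cd3d, were named after their values had been seen. The values of 1 listed gene are not reported here. Each library is counted as a separate mouse by the series' design text, so p-values measure the spread between mice with the same leukemia.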

Additional observations from a re-analysis of the deposited data

How the results depend on the processing

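The directions and calls of Ccl9, Csf1r, Ramp1 and Grap2 were the same in all 14 alternatives. Their log2 fold changes ran from −4.49 to −4.07 for Ccl9, from 1.74 to 2.26 for Csf1r, from −3.19 to −2.22 for Ramp1 and from −0.55 to −0.33 for Grap2, with highest adjusted p of 9.64e-05, 0.00655, 0.00194 and 0.0424. Flt3 was called in none of the 13 that tested it, and its log2 fold change ran from −0.79 to 0.66 when each library was left out, turning sign without untreated replicate 1 (0.66), and also turned with limma voom (0.0028, adjusted p = 0.997); the cause was not tested. Members called stayed at 1 higher and 3 lower, and related genes called ran from 19 to 24 higher and from 5 to 6 lower. The median over all genes moved by at most 0.026 (log2) between scalings. Without the low-count filter Ccl3 had a log2 fold change of 0.30 (adjusted p = 0.868). Deviations from the group means of same-numbered libraries 1, 2 and 3 correlated at 0.305, 0.288 and −0.0373 across genes. Those of libraries with unlike numbers correlated at −0.336 to 0.0248. Numbers 1 and 2 thus lay above this range and number 3 did not, and these values do not settle whether the numbers pair the mice. The sources used here state no pairing, and the main fit used none. The replicate block gave 3434 genes higher and 3356 lower, against 3316 and 3266 without it, and 1 member higher and 3 lower. Among the related genes, Csf3r (0.95) and Cd33 (1.04) were called higher and Id2 (−0.65) lower under the block, Id2 also by DESeq2, and Crcp (0.21) higher with upper-quartile scaling, and the rise of Icosl was not called by DESeq2 or with either other filter. Depth limits Ccl3, Cd28 and Emb, which held from 0 to 24 reads per library.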

Other observations

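Some genes beside the members in RefSeq order changed strongly, and were picked after their values had been seen. Cacna1i, a calcium channel gene that stands 2 protein-coding genes before Grap2, had 2866, 2710 and 2900 reads in dox libraries and 274, 293 and 375 reads in untreated libraries (log2 fold change 3.13, SE 0.11, edgeR adjusted p = 4.88e-07). Rbm44, an RNA-binding protein gene next to Ramp1, had 17, 14 and 21 reads in dox libraries and 2, 1 and 0 reads in untreated libraries (3.91, SE 0.60, adjusted p = 0.000557). Parp8, next to Emb, had 266, 296 and 224 reads in dox libraries and 105, 132 and 124 reads in untreated libraries (1.09, SE 0.15, adjusted p = 0.000365). Each of these 3 rose, while Ramp1 and Grap2 fell and Emb was too low to be tested.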
